A study of Drosophila pseudoobscura and Drosophila ananassae and Drosophila yakuba with 13 samples.

Results

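Atg5 and Atg9, 2 genes of the autophagy machinery, were more highly expressed in ovary than in testis in both D. ananassae and D. pseudoobscura. They were chosen by name, as the rows carrying the symbol Atg5 or Atg9 in the authors' deposited table of each species, and both symbols were found in both tables, 2 of 11576 genes in D. ananassae and 2 of 11946 in D. pseudoobscura. The study sequenced polyadenylated RNA from dissected gonads, as single reads of 50 bases, to find genes whose expression differs between the sexes. All flies were wild type, free of Wolbachia, virgin and 6 to 10 days old, and the ducts attached to the gonad had been cut away. D. ananassae, a stock center strain grown at 25 °C, gave 2 testis and 2 ovary libraries. D. pseudoobscura, a stock center strain grown at 20 °C, gave 2 testis and 3 ovary libraries, so species, strain and growth temperature cannot be told apart. D. yakuba was not analysed here.

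Autophagy encloses part of the cytoplasm in a double membrane, the autophagosome, and delivers it to the lysosome for breakdown. Atg5 is covalently joined to the ubiquitin-like protein Atg12 and, with Atg16, promotes the attachment of Atg8 to lipid on the growing membrane. Atg9 is a membrane-spanning protein that moves lipid between membrane leaflets and is carried on small vesicles that help to start the autophagosome. In the ovary of D. melanogaster, autophagy accompanies the death of nurse cells, the germline cells that feed the oocyte.

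The tables hold 1 fold change, 1 average and 1 test per gene, with no value per library. The spread of Atg5 and Atg9 between replicates therefore could not be seen, and the depth of each library is unknown. Fold changes are given as log2 of testis over ovary, so a negative value is higher in ovary. That direction is not in the headers and was read from the order of the tissues in the tables' titles. It was set beside markers of known gonad expression, of which few are named. The testis marker TrxT was testis-biased in both species (4.56 and 5.89 in the authors' deposited tables). Of 24 ovary markers, 2 were measured for D. ananassae and 5 for D. pseudoobscura, and the authors' deposited tables have all of these ovary-biased. Of markers of other tissues, none was measured in D. ananassae. In D. pseudoobscura 3 of 7 muscle markers were measured and were ovary-biased (-9.21 to -3.0), at rescaled log2 averages of 6.29 to 8.97, and 2 of 4 accessory gland markers were testis-biased (5.56 and 9.05), at averages of -0.35 and -0.32, in the authors' deposited table. Fat body and hemocyte markers were not found by symbol. The part of such tissues in the values of Atg5 and Atg9 was not tested.

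Atg5, the partner of Atg12 in the conjugation step, had a log2 fold change of -3.66 in D. ananassae in the authors' deposited table, a level 12.6 times as high in ovary as in testis. Its adjusted p was 1.34e-34 in the authors' edgeR likelihood-ratio test, with Benjamini-Hochberg adjustment over the table. In D. pseudoobscura Atg5 stood at -2.19 in the authors' deposited table, 4.56 times as high in ovary, with an adjusted p of 0.00143 in the same edgeR test. The call in D. pseudoobscura was lost under Bonferroni adjustment (adjusted p = 1 in the edgeR test) and when the statistic was referred to an F distribution with 3 residual degrees of freedom (adjusted p = 0.0733). In D. ananassae that F reference, with 2 residual degrees of freedom, gave an adjusted p of 0.025 on the edgeR statistic. The standard error implied by fold and statistic was 0.30 in D. ananassae, for an approximate 95% interval of -4.24 to -3.08. For D. pseudoobscura it was 0.66, with an interval of -3.48 to -0.90. In linear terms the interval ran from 8.46 to 18.9 times in D. ananassae and from 1.87 to 11.2 times in D. pseudoobscura. In bulk gonads, fewer cells of a type and less RNA per cell cannot be told apart.

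Atg9, the lipid-moving protein of the vesicles, had a log2 fold change of -3.15 in D. ananassae in the authors' deposited table, 8.89 times as high in ovary (adjusted p = 5.58e-28 in the authors' edgeR likelihood-ratio test). Its value for D. pseudoobscura, in the authors' deposited table, was -3.02, 8.12 times as high in ovary (adjusted p = 1.98e-05 in the authors' edgeR test). Under Bonferroni adjustment the D. pseudoobscura call was lost (adjusted p = 0.122 in the edgeR test), while with the F distribution the adjusted p was 0.0419, and 0.0251 in D. ananassae, on the edgeR statistic. The implied standard errors were 0.28 and 0.68. They gave approximate 95% intervals of -3.71 to -2.59 for D. ananassae and -4.36 to -1.68 for D. pseudoobscura, or 6.04 to 13.1 times and 3.20 to 20.6 times as high in ovary.

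**Figure D1:**
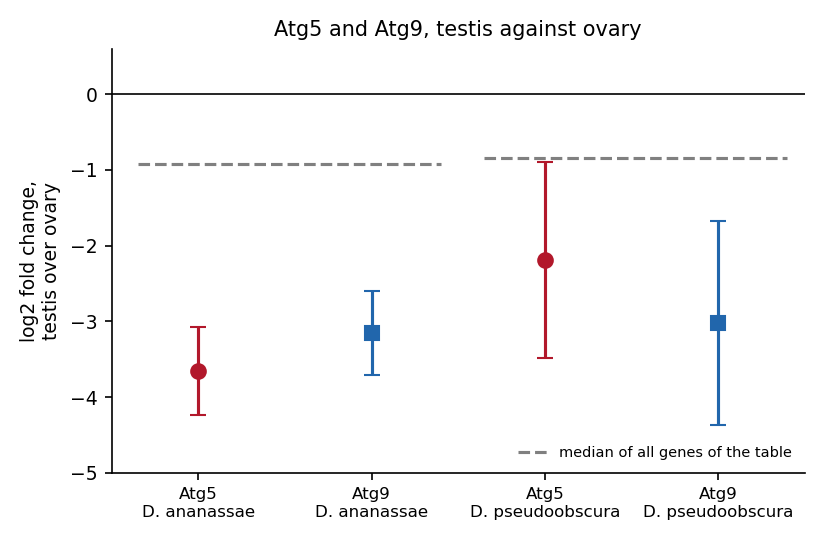
Log2 fold change of testis over ovary (vertical axis) of Atg5 (circles) and Atg9 (squares) in each species; points are the authors' deposited values, bars the approximate 95% intervals implied by the likelihood-ratio statistic, and dashed lines the median of all genes of the table. All 4 points lie below 0 and below the dashed lines, and the upper bound of Atg5 in D. pseudoobscura, -0.90, comes closest to the median gene of its table, at -0.85.

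Fold and average together imply a level per tissue, if the average is taken as the mean over libraries. These levels are on the authors' average expression rescaled to 1000000 per table, are not per length, and so are not compared between Atg5 and Atg9. For Atg5 the average of 43.2 in D. ananassae implied 80.1 in ovary and 6.34 in testis, and the average of 23.7 in D. pseudoobscura implied 34.5 in ovary and 7.56 in testis. The order of Atg5 levels was thus D. ananassae ovary, D. pseudoobscura ovary, D. pseudoobscura testis and D. ananassae testis. The tables were normalized separately, so the steps between species in this order were not tested. For Atg9 an average of 37.9 in D. ananassae implied 68.1 in ovary and 7.67 in testis, and an average of 39.5 in D. pseudoobscura implied 60.9 in ovary and 7.50 in testis. The Atg9 order was D. ananassae ovary, D. pseudoobscura ovary, D. ananassae testis and D. pseudoobscura testis, with values close to each other in the same tissue. With both tissues weighted equally, the D. pseudoobscura levels of Atg5 became 38.9 in ovary and 8.53 in testis, and those of Atg9 70.4 and 8.67. That weighting put Atg9 first in D. pseudoobscura ovary and last in D. ananassae testis. As a share of the summed testis and ovary level, which depends on the fold alone, testis held 7.33% (approximate 95% interval 5.03% to 10.6%) of Atg5 in D. ananassae and 18.0% (8.23% to 34.9%) in D. pseudoobscura. For Atg9 the testis share was 10.1% (7.10% to 14.2%) and 11.0% (4.63% to 23.8%).

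**Figure D2:**
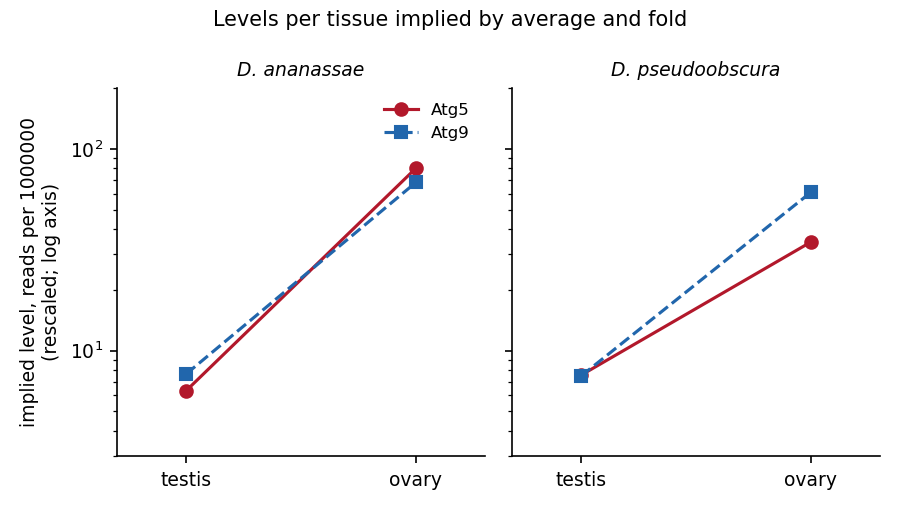
Levels implied in testis and ovary (horizontal axis) for Atg5 (circles, solid line) and Atg9 (squares, dashed line) in each species, in rescaled reads per 1000000 on a log axis, with no error bars because the tables give no value per library. All 4 lines rise from testis, at 6.34 to 7.67, to ovary, at 34.5 to 80.1, and the Atg5 line of D. pseudoobscura is the least steep.

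Ovary bias was common in both tables, so the direction of Atg5 and Atg9 is read against it. At an adjusted p under 0.05, 53.8% of all D. ananassae genes and 44.1% of all D. pseudoobscura genes were called ovary-biased, against 2 of 2 members in each species, and 31.7% and 29.6% were called testis-biased. Under Bonferroni adjustment the ovary-biased shares were 44.7% and 27.4%, with both members called in D. ananassae and neither in D. pseudoobscura. The whole-table median fold in the authors' deposited tables was -0.93 for D. ananassae and -0.85 for D. pseudoobscura. Relative to that median, Atg5 stood at -2.73 and -1.34, and Atg9 at -2.23 and -2.17. Relative to the median of the genes above the upper quartile of average expression, Atg5 in D. pseudoobscura stood at -1.05, with an approximate 95% interval of -2.34 to 0.23 that included 0. In D. ananassae 17.2% of genes had a lower fold than Atg5 and 22.0% a lower fold than Atg9. In D. pseudoobscura the shares were 36.2% for Atg5 and 29.5% for Atg9. Within the ovary-biased genes the members held different places in the 2 species. The authors' deposited tables put the median ovary-biased gene at -2.69 for D. ananassae and -4.23 for D. pseudoobscura. Both members were thus beyond that median in D. ananassae, where 32.0% of the ovary-biased genes had a larger bias than Atg5 and 40.8% a larger bias than Atg9. In D. pseudoobscura both fell short of it, with 81.5% and 66.7% of the ovary-biased genes more strongly biased. These places follow from each table's own spread of folds and from which genes were called. Among genes of similar average, calls began at -0.53 in D. ananassae and at -1.32 in D. pseudoobscura. The places are no test of a difference between species.

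**Figure D3:**
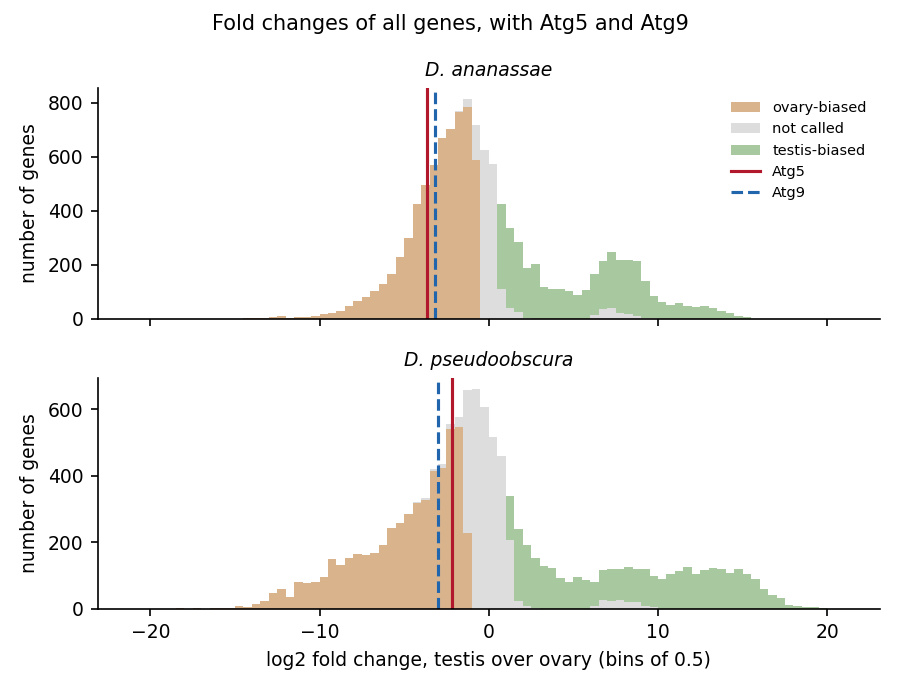
Number of genes (vertical axis) by log2 fold change of testis over ovary (horizontal axis, bins of 0.5) in each species, coloured by call at the authors' adjusted p under 0.05, with vertical lines at Atg5 (solid) and Atg9 (dashed). Both lines stand in the ovary-biased bulk of genes, at -3.66 and -3.15 for D. ananassae and at -2.19 and -3.02 for D. pseudoobscura, where Atg5 is nearer to the genes not called.

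The error behind the tests of Atg5 and Atg9 was nearly the one that genes of a similar range of fold and average had. Over 3993 genes of D. ananassae above the lowest quartile of average expression, with an absolute log2 fold of 1 to 4, the standard error implied under a gamma model had a median of 0.26, and its 5th and 95th percentiles differed by 1.09 times. Over 3350 such genes of D. pseudoobscura the median was 0.60 and the percentiles differed by 1.02 times. On this gamma form Atg5 stood at 0.27 and 0.60 and Atg9 at 0.26 and 0.60, close to these medians. The error attached to Atg5 and Atg9 is therefore close to 1 value for the genes in this range of fold and average, equal to a coefficient of variation between libraries of 18.0% for D. ananassae and 45.6% for D. pseudoobscura. If either gene varied more between libraries than the typical gene, its interval would be too narrow, and if less, too wide. The Atg5 error was 2.23 times as large in D. pseudoobscura as in D. ananassae and that of Atg9 2.40 times, while the likelihood-ratio statistic was 153.2 against 11.1 for Atg5 and 122.5 against 19.5 for Atg9, D. ananassae first, in the authors' deposited tables. Among genes between the same quartiles of average expression, the mildest fold called ovary-biased in the authors' deposited tables was -0.53 for D. ananassae and -1.32 for D. pseudoobscura. The members are themselves among the called genes, so their folds could not be nearer to 0 than that, and their place beyond it is no further support. Between those quartiles 54.6% of genes were ovary-biased in D. ananassae, and in D. pseudoobscura 41.1% where Atg5 lay and 40.3% where Atg9 lay.

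**Figure D4:**
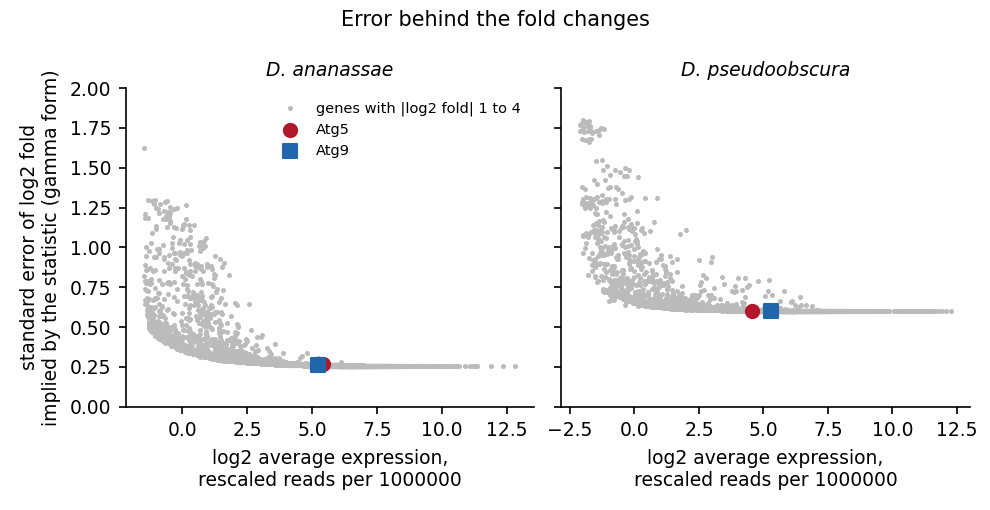
Standard error of the log2 fold change implied by the statistic in its gamma form (vertical axis) against log2 average expression in rescaled reads per 1000000 (horizontal axis), for all genes with an absolute log2 fold of 1 to 4 (grey points), with Atg5 (circles) and Atg9 (squares). Above low averages the grey points lie on a flat floor near 0.26 for D. ananassae and 0.60 for D. pseudoobscura, and the members lie on that floor.

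The same contrast in 2 species allowed each gene to be compared between them, with no library in common. The Atg5 log2 fold in D. ananassae minus that in D. pseudoobscura was -1.47, a ratio of 2.77 between the linear folds (approximate standard error 0.72 on the log2 scale). The approximate 95% interval of this difference was -2.88 to -0.06. Allowing for 2 genes compared, the 97.5% interval was -3.09 to 0.15 and included 0, and so did the 95% interval once each fold was centred on its table's median (difference -1.39, interval -2.81 to 0.02). With the gamma form of the standard error, the 95% interval after centring was -2.68 to -0.10 and the 97.5% interval without centring -2.95 to 0.01. Over both genes, a difference in Atg5 between the species was thus not shown beyond the error. For Atg9 the difference was -0.13, with an approximate 95% interval of -1.58 to 1.32, so that a difference of up to about those sizes in either direction could not be told from none. Between the genes, the log2 fold of Atg5 minus that of Atg9 was -0.51 in D. ananassae (approximate 95% interval -1.31 to 0.30). The same difference was 0.83 in D. pseudoobscura (interval -1.03 to 2.69). By point value the order of the members turned between species, but the 95% interval of each step included 0, so a turned order was not shown. The change of that step between species was -1.34, with an approximate 95% interval of -3.37 to 0.69. These intervals treat the folds as independent, although Atg5 and Atg9 of a species were measured in the same libraries.

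Among the 36 symbols listed in both tables, 27 (75%) were ovary-biased in both species, Atg5 and Atg9 included. Counting from the most ovary-biased symbol, Atg5 ranked 20 of 36 for D. ananassae and 25 for D. pseudoobscura, and Atg9 ranked 21 and 19. The medians of these symbols were -3.77 and -3.41 in the authors' deposited tables, so that relative to them Atg5 stood at 0.11 and 1.22 and Atg9 at 0.61 and 0.39. For Atg5 the approximate 95% intervals of these centred values, -0.47 to 0.68 and -0.07 to 2.51, included 0, although the latter was 0.04 to 2.40 on the gamma form. For Atg9 they were 0.06 to 1.17 in D. ananassae and -0.95 to 1.73 in D. pseudoobscura. A place off the middle of this named set was thus mostly within the error. Of the 36 symbols 12 were snRNA genes, whose copies within a class can be near-identical. Without them 62.5% were ovary-biased in both species, and Atg5 ranked 12 and 13 of 24 and Atg9 13 and 10. The median of these 24 symbols in D. ananassae thus lay between Atg5 and Atg9, and Atg9 in D. pseudoobscura was on its ovary side. The centred values given above therefore depend on the snRNA genes, and intervals about the median without them were not computed. By distance in the plane of the 2 fold changes, over 2 comparisons, the symbol most like Atg5 was Atg9, at 0.97. Next came Dref, a transcription factor of replication genes, at 0.99, with folds, D. ananassae first, of -4.53 and -2.65 from the authors' deposited tables. The third was SREBP, a transcription factor of lipid synthesis, at a distance of 1.72 (-1.99 and -1.76 in the authors' deposited tables). For Atg9 the nearest symbol was oxt, a xylosyltransferase gene, at 0.82 (-2.90 and -3.80 in the authors' deposited tables), followed by Atg5 and by Dref at 1.43. These distances are of the size of the errors of the folds, so the order of the nearest symbols is a description only.

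**Figure D5:**
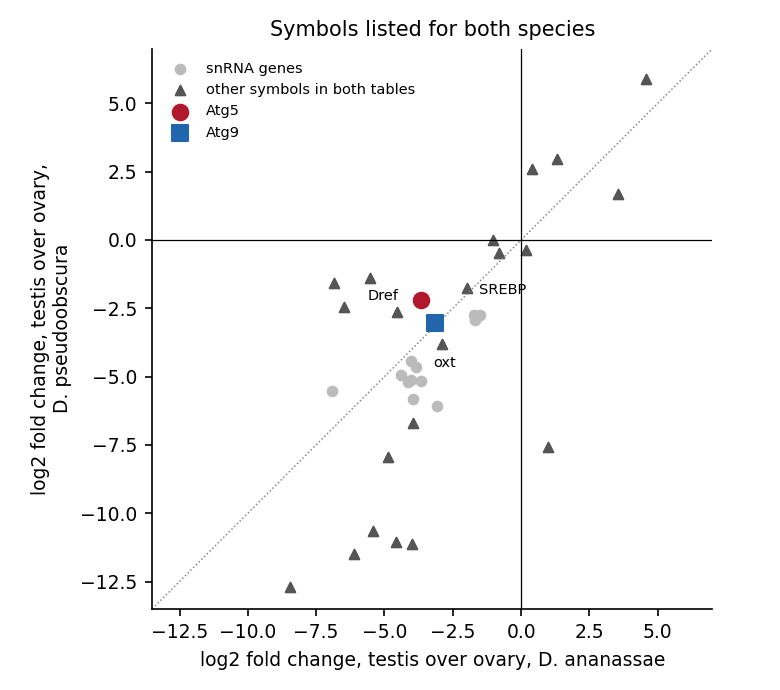
Log2 fold change of testis over ovary in D. ananassae (horizontal axis) and D. pseudoobscura (vertical axis) for the 36 symbols listed in both tables, with snRNA genes as grey circles, other symbols as triangles, Atg5 as the large circle, Atg9 as the square, and equal folds along the dotted line. Atg9 lies near the dotted line at -3.15 and -3.02, Atg5 above it at -3.66 and -2.19, and Dref, oxt and SREBP are the labelled neighbours.

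Whether other genes of autophagy behaved like Atg5 and Atg9 could not be read from the tables by symbol. The list of 34 further symbols covered initiation (4 symbols), vesicle supply and lipid transfer (3), the lipid kinase complex (6, with 2 names of 1 kinase), conjugation (9), cargo and fusion (6) and regulators (6). None of the 34 was listed by symbol in either table, where 11366 genes in D. ananassae and 11686 in D. pseudoobscura carry an identifier only. RefSeq names 31 of them in D. pseudoobscura (assembly UCI_Dpse_MV25) but does not pair them with the identifiers of the authors' table, so genes such as Atg12 and Atg16, the partners of Atg5, were not analysed here. In that RefSeq annotation no other gene overlaps Atg5 or Atg9. This bears on the D. pseudoobscura counts because the labels do not say that strand was used, although the annotation the authors counted on may differ. Overlaps in D. ananassae were not looked up.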

How the data were processed

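The authors' tools, per the submitters' processing notes, were edgeR, HTSeq 0.5.4p3, Bowtie2 2.1.0, Cuffdiff 2.1.0 and Cufflinks 2.1.0. Not given in the sources used here are the genome builds, annotation, filter, normalization and edgeR version. Per the labels, libraries were made from poly-A selected RNA with random priming. Each gene of the deposited tables has, per the file headers, a fold change and an average on the log2 scale, a likelihood-ratio statistic (a score with 1 degree of freedom), a p-value and its false discovery rate, called adjusted p. The deposited p-value equalled the chi-square tail of the statistic within 0.495%, and the deposited false discovery rate equalled the Benjamini-Hochberg value within 0.484%. Averages headed log CPM in the authors' deposited tables summed to far more than 1000000 and were rescaled to that total per table.

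Genes were called at an adjusted p under 0.05. Standard errors were computed as the absolute log2 fold divided by the square root of the statistic. A form added after the data were seen inverts the statistic under a gamma model with equal library sizes. Both were tried on simulated data with 1 known spread between libraries, the same for both species. The implied spread differed by species (18.0% and 45.6%), so the intervals were not tested at the spread of each table. The standard errors presume that the authors used all labelled libraries. Named genes were the members, autophagy lists matched by symbol, and the 3 nearest shared symbols. Members and lists were chosen with earlier results of these data known. The labels do not say whether replicates were separate pools of flies, so p-values may measure technical spread. Computations used Python 3.11.15, numpy 2.4.6, pandas 2.3.3, scipy 1.17.1 and matplotlib 3.10.9.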

Additional observations from a re-analysis of the deposited data

How the results depend on the processing

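Of 20 recomputed calls of Atg5 and Atg9 under other adjustments, filters, a minimum fold or another reference distribution, 17 kept the call and 3 were lost, all in D. pseudoobscura. Atg5 there, at -2.19, was lost under Bonferroni adjustment (adjusted p = 1 on the edgeR statistic) and with an F distribution, added after seeing the data (adjusted p = 0.0733), against a range of 0.00141 to 1 over its alternatives. Atg9 there, at -3.02, was lost under Bonferroni adjustment (adjusted p = 0.122 on the edgeR statistic), against a range of 1.95e-05 to 0.122. The F distribution treats the error as estimated from 1 gene's libraries alone, and Bonferroni is stricter by construction. The minimum fold of 2 could not remove a call, as every member fold was at least 4.56 times. Nor could the filter, a rescaled log2 average of at least 1, leave a member out, at averages of 4.57 to 5.43. The calls kept under both of these settings therefore add little. Centring kept the authors' p, so it could change direction but not remove a call. On the median of all genes or of those above the upper quartile of average expression the member folds lay between -2.73 and -1.05, and the interval of Atg5 in D. pseudoobscura reached 0.23 on the latter. On the median of the 36 shared symbols, a mostly ovary-biased set of which 12 are snRNA genes, all 4 member folds turned positive. Atg5 went to 0.11 in D. ananassae and 1.22 in D. pseudoobscura, and Atg9 to 0.61 and 0.39. Without the snRNA genes, Atg5 in D. ananassae (rank 12 of 24) and Atg9 in D. pseudoobscura (rank 10 of 24) lay on the ovary side of the median. The turn of all 4 folds thus depended on the snRNA genes. The centring on the 36 symbols was added after seeing the data. With the standard error from fold and statistic, only the approximate 95% interval of Atg9 in D. ananassae, 0.06 to 1.17, excluded 0. On the gamma form that of Atg5 in D. pseudoobscura, 0.04 to 2.40, excluded 0 as well. Of 28 recomputed counts of called genes 1 moved by more than 1.5 times, the ovary-biased genes of D. pseudoobscura, from 5269 to 3279 under Bonferroni adjustment. The Atg5 difference between species ranged from -1.47 to -1.12 over centrings, and the Atg9 difference from -0.13 to 0.22, each within 1 standard error of the value given.

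Leaving out a replicate was not possible without values per library, and neither was a pseudocount or another normalization. No paired analysis was possible because the tables carry no column per library.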

Other observations

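In the RefSeq annotation of D. pseudoobscura (assembly UCI_Dpse_MV25) the gene next to Atg5 is brk, which encodes a repressor of Dpp target genes. It is outside the rule for named genes and was looked up after the values of Atg5 had been seen. In the authors' deposited tables brk was ovary-biased in both species, at -5.43 in D. ananassae (adjusted p = 1.34e-54 in the authors' edgeR test) and -10.7 in D. pseudoobscura (adjusted p = 8.1e-26 by that edgeR test). Its bias was larger than that of Atg5 in each species, and it was larger in D. pseudoobscura, where that of Atg5 was smaller. The rescaled log2 average of brk in D. pseudoobscura was only 1.23, against 4.57 for Atg5. A fold of -10.7 at that average leaves almost no level in testis, so the size of this fold is poorly fixed. The difference between these neighbours was not tested. The other neighbour of Atg5, Dok, and those of Atg9 were not listed by symbol in the tables.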
